A study of Mus musculus with 8 samples.

Results

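The plexins and neuropilins are the cell surface receptors for semaphorins, and 9 of the 10 genes considered (Plxna1, Plxna2, Plxna3, Plxna4, Plxnb1, Plxnb2, Plxnc1, Plxnd1, Nrp1 and Nrp2) could be read in sorted mouse colon fibroblasts, of 30827 genes measured in all. A gene was read from array rows (transcript clusters) whose platform annotation lists that gene alone; each of the 9 had 1 such row. The row that lists Nrp1 also lists the microRNA gene Mir1903, so it gave no value for Nrp1. RNA came from wild-type C57BL/6J mice, of an age that the labels do not give. Cells were gated as Epcam-CD45-CD31-gp38+, that is, without surface proteins of epithelium, leukocytes and endothelium and with podoplanin, and were then sorted by CD90, the surface glycoprotein coded by Thy1. There were 4 CD90- samples, numbered 13, 15, 17 and 19 in their titles, and 4 CD90+ samples, numbered 14, 16, 18 and 20, each on its own Affymetrix mouse transcriptome array. The 8 samples came from 4 mice, but which came from which is unlabelled, and p-values therefore speak only to variation among these 8 samples, part of which may be technical. The question put to them is how expression differs between the CD90+ and the CD90- fibroblasts.

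Plexins are single-pass receptors whose cytoplasmic part holds a GTPase-activating domain for small GTPases of the Ras and Rap kind. Class 3 semaphorins are secreted and, for the most part, bind a neuropilin, which has a short cytoplasmic tail and forms the receptor together with a plexin of the A class. Membrane-bound semaphorins bind plexins directly. Ligand binding is best known for turning axons and vessel sprouts away, by loosening adhesion and reshaping the actin skeleton, and neuropilins also act as co-receptors for vascular endothelial growth factors (VEGFs).

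Values are log2 expression as deposited, and differences are CD90+ minus CD90-. Means are given ± SD with n = 4 in each population. The highest value was 19.9, more than the 16 possible for a 16-bit scanner, so differences are stated as log2 values on this scale and not as ratios of RNA amounts. A gene was called when its limma p, adjusted by the Benjamini-Hochberg method over all 17283 tested genes, was under 0.05. Levels of different genes come from different probes and are not set against each other. Fewer cells that express a gene and less RNA per cell cannot be told apart in such bulk samples.

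Thy1 was at 5.46 to 5.57 in the CD90- samples and at 7.03 to 8.11 in the CD90+ samples. Podoplanin (Pdpn) was at 13.17 ± 0.2 and 13.2 ± 0.22, and 7 fibroblast markers averaged 15.27 to 15.47 in CD90- and 15.47 to 15.6 in CD90+ samples. The array's negative control rows had medians of 6.58 to 6.84, so a value below these is close to what probes without a target give. Samples 13 and 14 stood apart from the other 6: in this pair Xist had values of 16.16 and 16.27, against 9.32 or less elsewhere, and Uty, on the Y chromosome, 5.49 and 5.56, against 9.65 or more. By these genes the pair read as female, while the other 6 samples held RNA from a Y chromosome. Values without the pair are given for Plxna3, Plxna4, Plxnb2, Nrp2 and the membrane semaphorins.

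The genes split. Plxna2 and Plxnc1 rose in the CD90+ population, Plxna1 and Nrp2 fell, and the other 5 did not pass the test. Of the 9 members, 2 rose and 2 fell. Over all tested genes 14.0% were called higher and 15.7% lower, together 29.7%, against 4 of 9 here. The median difference over the 9 was -0.22, with 4 differences above 0 and 5 below, and that over all tested genes was -0.014. The values of both populations did not overlap for 6 of the 9 members, against 32.2% of all tested genes. Both counts include Plxnc1, which was bright enough for testing only through its CD90+ values and so had to differ to be counted.

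**Figure D1:**
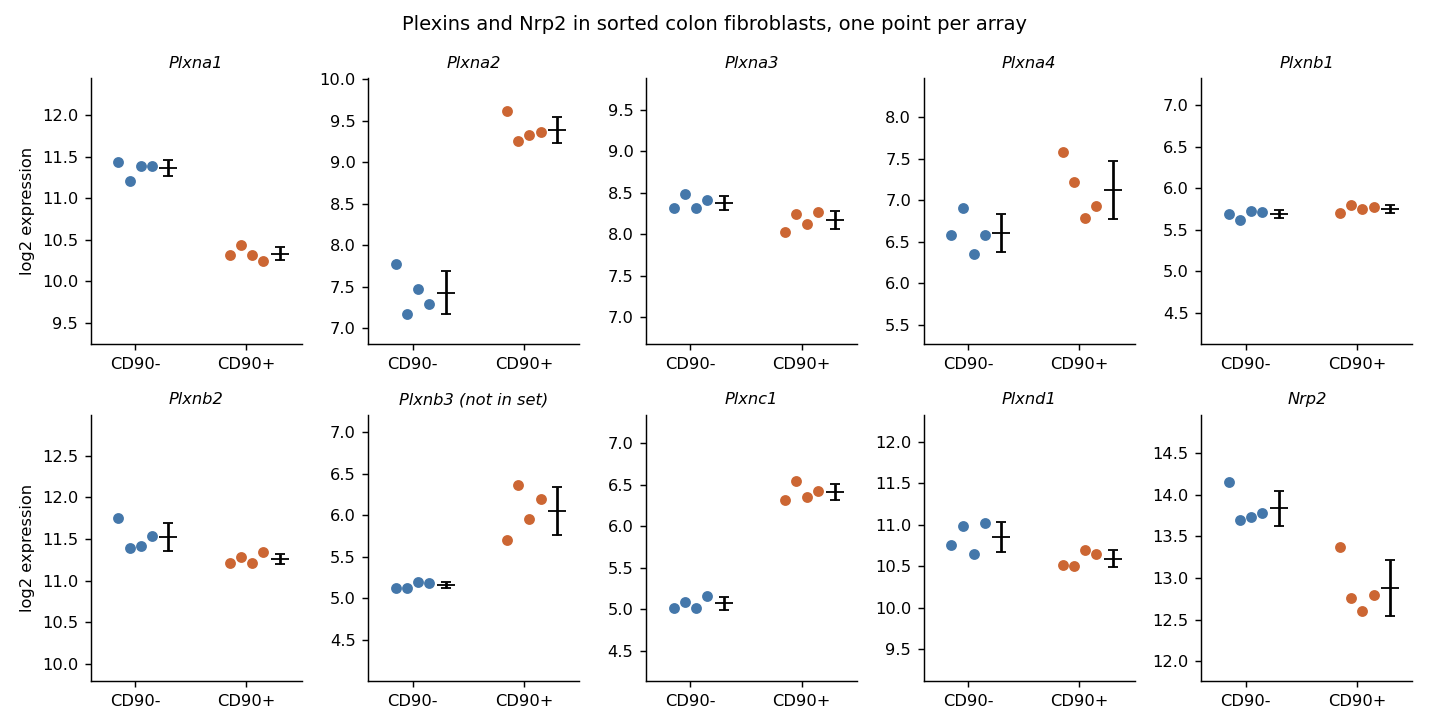
Log2 expression (vertical axis) of the 9 members and of Plxnb3 in the CD90- (blue) and CD90+ (orange) samples, from left to right in the order of their numbers, with the mean and SD (black, n = 4). Every panel spans the same number of log2 units; Plxna2 and Plxnc1 are higher and Plxna1 and Nrp2 lower in every CD90+ sample than in every CD90- sample.

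For 3 of the 4 called members, RefSeq's promoter table (build GRCm38.p6) held an entry, and the 250 bases upstream of the transcription start are shown because Plxna2 and Plxnc1 rose together while Nrp2 fell. They are written 5′ to 3′ on the gene's strand, and capitals mark each GC box (GGGCGG on either strand), a motif bound by SP-family factors. Plxna2 is at chr1:194619579-194619828 on the plus strand, Plxnc1 at chr10:94944846-94945095 on the minus strand and Nrp2 at chr1:62703067-62703316 on the plus strand.
Plxna2: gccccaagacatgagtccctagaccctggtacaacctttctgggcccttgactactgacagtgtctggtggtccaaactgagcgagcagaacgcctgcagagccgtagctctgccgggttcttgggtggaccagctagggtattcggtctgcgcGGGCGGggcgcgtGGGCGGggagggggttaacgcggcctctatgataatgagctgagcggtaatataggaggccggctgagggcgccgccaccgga
Plxnc1: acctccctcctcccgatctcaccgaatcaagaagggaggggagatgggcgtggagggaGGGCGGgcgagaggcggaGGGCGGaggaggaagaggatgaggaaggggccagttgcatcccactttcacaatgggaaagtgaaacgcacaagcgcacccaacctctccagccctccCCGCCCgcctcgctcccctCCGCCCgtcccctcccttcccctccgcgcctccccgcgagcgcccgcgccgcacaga
Nrp2: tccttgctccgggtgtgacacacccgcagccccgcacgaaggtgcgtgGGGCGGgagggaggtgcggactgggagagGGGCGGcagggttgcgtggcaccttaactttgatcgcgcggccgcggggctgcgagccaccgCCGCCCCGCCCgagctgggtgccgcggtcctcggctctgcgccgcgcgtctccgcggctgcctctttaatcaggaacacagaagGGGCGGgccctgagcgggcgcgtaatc
The upstream sequence of Plxna2 held 2 GC boxes, that of Plxnc1 held 4 and that of Nrp2 held 5, some of them overlapping. At least 1 GC box was found in 32.7% of the 32851 upstream sequences of the table. Their share of G and C was 62.8% for Plxna2, 68.8% for Plxnc1 and 72.4% for Nrp2, against a median of 52.4% over the table. None of the 3 held, on either strand, a TATA box (TATAAA), an E-box (CACGTG), an AP-1 site (TGACTCA) or a SOX site (AACAAT), which were in 12.4%, 6.02%, 4.46% and 9.42% of the table's sequences. The uncalled members with an entry, Plxna3, Plxnb1, Plxnb2 and Plxnd1, likewise held 1 to 4 GC boxes and none of the other motifs, with 63.6% to 75.2% G and C, so these features did not separate called from uncalled members. Plxnb3, a B-class plexin outside the 10 genes, held 0 GC boxes and 1 SOX site.

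The A-class plexins are the signalling partners of neuropilins in class 3 semaphorin receptors, and the 4 members of this class moved in different ways. Plxna1 is also known as a receptor for the transmembrane class 6 semaphorins. It was at 11.43, 11.21, 11.38 and 11.39 in CD90- samples 13, 15, 17 and 19, and at 10.32, 10.43, 10.32 and 10.24 in CD90+ samples 14, 16, 18 and 20. All 4 CD90+ samples lay below all CD90- samples, with a gap of 0.79 between the nearest values. The mean fell from 11.36 ± 0.097 to 10.33 ± 0.077, a difference of -1.03 (SE 0.072, limma adjusted p = 1.45e-05).

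Plxna2, the A-class plexin known from granule cell migration in the cerebellum, was at 7.77, 7.17, 7.47 and 7.3 in CD90- samples 13, 15, 17 and 19. In CD90+ samples 14, 16, 18 and 20 it was at 9.62, 9.26, 9.33 and 9.36. The populations were 1.49 apart at their nearest values, the widest gap among the 9 members. The mean rose from 7.43 ± 0.26 to 9.39 ± 0.16, a difference of 1.96 (SE 0.136, limma adjusted p = 1.43e-05).

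Plxna1 and Plxna2 thus changed in opposite directions in the same samples. The difference between them within an array, Plxna2 minus Plxna1, was -3.93 ± 0.19 in CD90- and -0.93 ± 0.2 in CD90+ samples. It shifted by 2.99 (two-sided exact permutation test over the 70 assignments of the 8 samples, p = 0.0286, the smallest that 4 against 4 can give), which shows unequal change and not which receptor is more abundant. Every CD90+ sample was lower in Plxna1 and higher in Plxna2 than every CD90- sample. The exact p could therefore not be larger, and it adds nothing to the calls of these genes. Were the samples paired by mouse, only 16 assignments would exist, and the smallest p would be 0.125.

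The other two A-class plexins did not pass the test. Plxna3, an X-linked gene whose product serves in receptors for Sema3f with Nrp2, ranged from 8.32 to 8.49 in CD90- and from 8.03 to 8.27 in CD90+ samples. The populations did not overlap but lay only 0.05 apart, and the difference was -0.22 (95% interval -0.39 to -0.042, limma adjusted p = 0.0634). Without samples 13 and 14 it was -0.19 (limma adjusted p = 0.102). Plxna4, known from sensory and sympathetic axons, ranged from 6.36 to 6.91 and from 6.79 to 7.58, with overlap. Its CD90- mean of 6.61 lay below the negative control rows. Its difference was 0.52 (95% interval 0.11 to 0.93, limma adjusted p = 0.0599), and it shrank to 0.36 (limma adjusted p = 0.143) without samples 13 and 14. With consecutive title numbers taken as pairs, which no label states, both were called (limma adjusted p = 0.0339 for Plxna3 and 0.0277 for Plxna4). Without CD90- sample 15 or CD90+ sample 18 Plxna4 was also called, at 0.62 and 0.63 (limma adjusted p = 0.0419 and 0.0381).

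The B-class plexins are receptors for class 4 semaphorins. Plxnb1, the receptor for Sema4d, lay between 5.62 and 5.8 on all 8 arrays, below the negative control rows. Its difference was 0.067 (95% interval -0.061 to 0.2, limma adjusted p = 0.414). Plxnb2, which binds Sema4c, ranged from 11.39 to 11.75 in CD90- and from 11.21 to 11.34 in CD90+ samples, again without overlap and with a gap of 0.05. Its difference was -0.26 (95% interval -0.47 to -0.06, limma adjusted p = 0.0557), and it passed the test without sample 15 (-0.31, limma adjusted p = 0.0445). It was -0.19 (limma adjusted p = 0.0806) without sample 13 and -0.17 (limma adjusted p = 0.124) without samples 13 and 14. In each population the highest Plxnb2 value was in the sample with the highest mean of 6 epithelial markers, sample 13 at 10.68 among the CD90- and sample 20 at 10.76 among the CD90+ samples. The mean of those markers ranged from 8.1 to 10.68 in the CD90- and from 8.7 to 10.76 in the CD90+ samples. Of the 6 markers 0 were called, against 29.7% of all tested genes, and their part in Plxnb2 was not tested.

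Plxnb3, the remaining B-class plexin and an X-linked gene, is not one of the 10 genes. It was at 5.13 to 5.2 in CD90- and at 5.7 to 6.36 in CD90+ samples and was called higher (difference 0.89, SE 0.131, limma adjusted p = 0.0011). All of its values lay below the negative control rows, and it reached the 5.36 needed for testing only on the 4 CD90+ arrays, so it had to differ to be tested at all.

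Plxnc1, the only plexin of its class and the receptor for the membrane-anchored Sema7a, was at 5.01, 5.09, 5.01 and 5.16 in CD90- samples 13, 15, 17 and 19. In CD90+ samples 14, 16, 18 and 20 it was at 6.31, 6.54, 6.35 and 6.43. The populations were 1.15 apart at their nearest values, and the CD90+ samples differed among themselves by only 0.23. The mean rose from 5.07 ± 0.075 to 6.41 ± 0.1, a difference of 1.34 (SE 0.073, limma adjusted p = 3.55e-06). Both means were below the negative control rows, so the size of the difference is not exact. Plxnc1 reached the brightness needed for testing, 5.36 on at least 4 arrays, only through its CD90+ values, so it had to differ to be tested at all. Sema7a itself was at 5.74 ± 0.17 and 6.07 ± 0.4 (limma adjusted p = 0.219).

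Plxnd1, known from vessel patterning as the receptor for Sema3e, ranged from 10.65 to 11.02 in CD90- and from 10.5 to 10.69 in CD90+ samples. The ranges overlapped in the CD90- sample 17 and the CD90+ sample 18. The difference was -0.26 (95% interval -0.49 to -0.038, limma adjusted p = 0.0786). Leaving out 1 sample at a time gave -0.33 to -0.21, and the test was passed without sample 17 (-0.33, limma adjusted p = 0.0414). Its ligand gene Sema3e was called higher, from 4.85 ± 0.11 to 5.71 ± 0.15 (limma adjusted p = 0.000173), both dimmer than the negative control rows. It too was bright enough for testing only through its CD90+ values.

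Nrp2, the neuropilin that binds Sema3f and serves lymphatic vessels as a co-receptor for VEGF-C, was at 14.16, 13.7, 13.73 and 13.78 in CD90- samples 13, 15, 17 and 19. In CD90+ samples 14, 16, 18 and 20 it was at 13.37, 12.76, 12.6 and 12.79. Nrp2 was bright in both populations, and samples 13 and 14 were the highest of their populations, but no CD90+ sample reached a CD90- one. The mean fell from 13.84 ± 0.21 to 12.88 ± 0.34, a difference of -0.96 (SE 0.174, limma adjusted p = 0.00335). Without samples 13 and 14 the difference was -1.02 (limma adjusted p = 7.88e-05). Samples 13 and 14 were also the highest in the mean of 7 smooth muscle markers, at 9.64 and 10.4 against 8.97 to 9.3 in the other CD90- and 9.12 to 9.2 in the other CD90+ samples. Of these 7 markers 4 were called higher and 2 lower, against 14.0% and 15.7% of all tested genes. The part of smooth muscle RNA in the Nrp2 values was not tested.

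**Figure D2:**
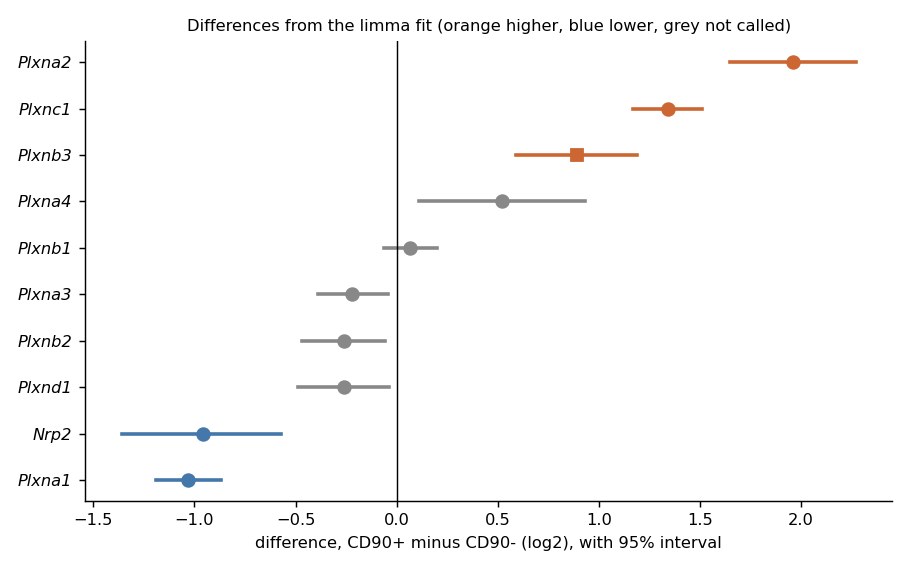
Difference between the populations (CD90+ minus CD90-, log2) with its 95% interval from the limma fit for the 9 members (circles) and Plxnb3 (square). The intervals of Plxna2 and Plxnc1 lie above 1, that of Plxna1 lies between -1.19 and -0.87, and those of Plxna3, Plxna4, Plxnb2 and Plxnd1 leave out 0 although their p-values adjusted over all genes did not pass.

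The secreted ligands of these receptors had differences from -3.34 to 2.9. Of 7 class 3 semaphorins 6 were bright enough to test, and 5 rose, among them Sema3e, which was tested only through its CD90+ values, and 1 fell. All 6 were thus called, against 29.7% of all tested genes. Sema3c, which acts through Nrp1 and Nrp2, rose from 11.26 ± 0.37 to 13.27 ± 0.24 (limma adjusted p = 9.11e-05), and Sema3b from 6.42 ± 0.15 to 8.14 ± 0.14 (limma adjusted p = 4.72e-06). Sema3f, the ligand of Nrp2, was at 12.26, 12.23, 12.23 and 12.43 in CD90- samples 13, 15, 17 and 19 and at 8.95, 8.74, 9.09 and 9.01 in CD90+ samples 14, 16, 18 and 20. It fell by 3.34 on the log2 scale (limma adjusted p = 1.36e-07). The ligand Sema3f and its receptor gene Nrp2 were thus both lower in every CD90+ sample.

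Of 13 membrane semaphorins 10 were tested, of which 1 rose, 2 fell and 7 were not called. The share called, 30.0%, was close to the 29.7% of all tested genes. Without samples 13 and 14, 2 rose and 2 fell. Sema6a, a ligand of A-class plexins, fell from 9.99 ± 0.34 to 8.22 ± 0.15 (limma adjusted p = 7.44e-05), and Sema4c, the ligand of Plxnb2, from 9.79 ± 0.34 to 8.7 ± 0.19 (limma adjusted p = 0.00159). Sema4b rose by 0.3 (limma adjusted p = 0.022), and lost that call when any 1 of samples 15, 17, 18, 19 or 20 was left out, with limma adjusted p up to 0.0663. Sema4d, the ligand of Plxnb1, was at 5.87 ± 0.14 and 5.63 ± 0.12 (limma adjusted p = 0.0801).

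Of 8 VEGF ligands and receptors 7 were tested, and 2 rose and 2 fell, that is, 57.1% were called, against 29.7% of all tested genes. Vegfa, which binds neuropilins beside its receptor tyrosine kinases, fell from 13.25 ± 0.094 to 10.91 ± 0.043 (limma adjusted p = 1.36e-07), and Vegfb fell by 0.34. Vegfc, the lymphatic growth factor that Nrp2 binds, rose from 9.29 ± 0.21 to 11.19 ± 0.32 (limma adjusted p = 5.86e-05), and Pgf, the placental growth factor, from 6.38 ± 0.31 to 9.6 ± 0.61 (limma adjusted p = 6.37e-05). The receptor tyrosine kinases Kdr and Flt1 were at 5.69 ± 0.57 and 5.67 ± 0.34 and at 6.65 ± 0.29 and 6.32 ± 0.39 and were not called, and Flt4 was too dim to test.

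Proteins that join plexins or neuropilins at the surface were a list of 11, of which 7 were tested, 3 rose and 1 fell. Of the tested ones 57.1% were called, against 29.7% of all tested genes. L1cam, an adhesion molecule that pairs with Nrp1, rose from 6.48 ± 0.14 to 8.43 ± 0.75 and its relative Chl1 from 7.24 ± 0.75 to 10 ± 1.19 (limma adjusted p = 0.00208 and 0.00803). Met, the receptor of hepatocyte growth factor and a partner of B-class plexins, rose from 5.49 ± 0.25 to 6.08 ± 0.18 (limma adjusted p = 0.0124), below the negative control rows. The gene of the integrin beta1 chain, Itgb1, fell by 0.41 (limma adjusted p = 0.0033), a call lost after another quantile normalization (limma adjusted p = 0.162).

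Inside the cell, 18 small GTPases and their regulators were tested, and 4 rose and 5 fell. Rasa1, a GTPase-activating protein for Ras, rose by 0.95 and Rras2 by 0.97, while Mras, a substrate of plexin GTPase-activating domains, fell from 9.9 ± 0.21 to 8.32 ± 0.089 (limma adjusted p = 1.4e-05). Farp1 and Arhgef11, exchange factors bound by A-class and B-class plexins, fell by 0.53 and 0.49. Of 16 tested cytoplasmic effectors 6 rose and 5 fell; of those that rose, Dpysl4 was tested only through its CD90+ values. Fyn, a tyrosine kinase that signals from A-class plexins, rose from 9.88 ± 0.23 to 11.91 ± 0.19, and Limk1, the kinase that inactivates cofilin, from 7.73 ± 0.088 to 9.23 ± 0.083 (limma adjusted p = 1.14e-05 and 1.67e-06). Mical2, of the actin-oxidising enzymes first known as plexin partners, fell from 8.97 ± 0.14 to 7.67 ± 0.12, and the cofilin gene Cfl1 fell by 0.41, a call also lost after that normalization (limma adjusted p = 0.0863). Both lists moved in both directions, with median differences of 0.01 and 0.17. Among all tested genes 14.0% were called higher and 15.7% lower, together 29.7%, a smaller share than in either list.

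**Figure D3:**
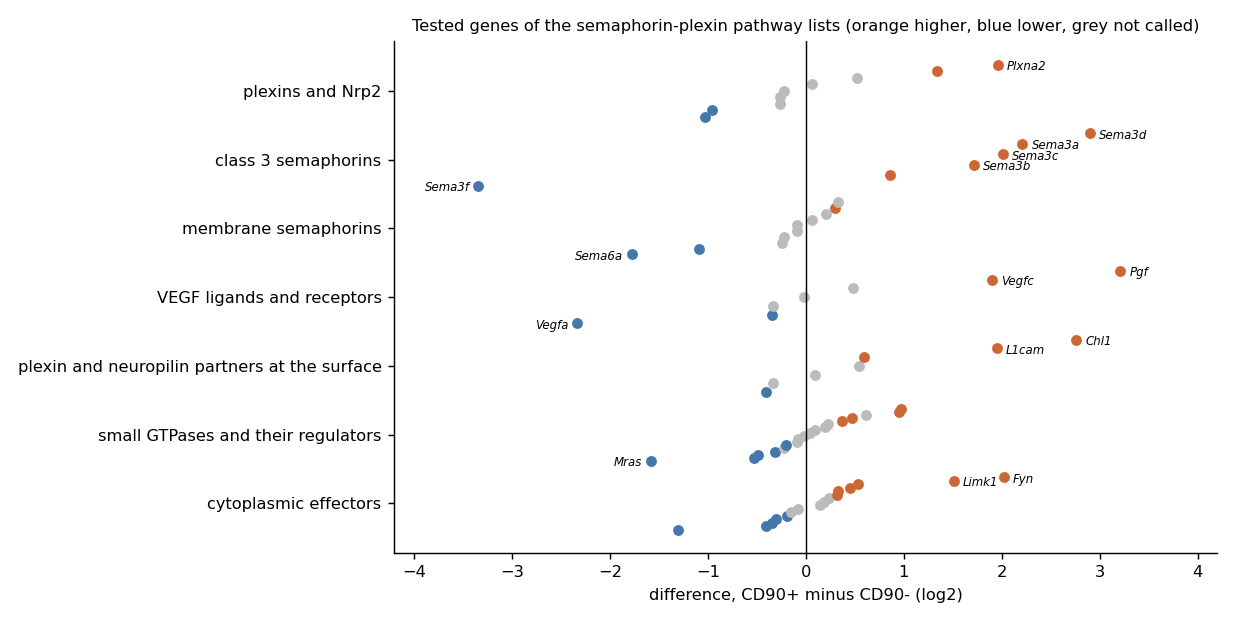
Difference between the populations (CD90+ minus CD90-, log2; 1 point per tested gene) in the plexins and Nrp2 and in 6 lists of ligands, partners and effectors; genes beyond 1.5 in either direction are labelled. The class 3 semaphorins spread from -3.34 for Sema3f to 2.9 for Sema3d, and the receptors from -1.03 to 1.96.

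Markers of other cells that could carry plexins also moved with the populations. Of 10 enteric glia markers 8 were measured and all 8 were called higher in the CD90+ population, of which Gfap was tested only through its CD90+ values. Over all tested genes 14.0% were called higher. The mean of the 8 glia markers lay between 5.49 and 5.79 in the CD90- samples and was 7.08, 8.39, 7.66 and 8.08 in CD90+ samples 14, 16, 18 and 20. Sox10, the defining transcription factor of glia, was at 5.64 ± 0.064 and 6.87 ± 0.29. The largest differences among the markers were those of Kcna1 (5.18) and Cdh19 (5.16). Sox10, Gfap and Foxd3 did not rank the CD90+ samples as the mean of the markers did, and Foxd3 was highest in sample 14 (5.88). The means of Gfap and Foxd3 lay below the negative control rows. Plxnc1 followed the same order as the glia mean over the 4 CD90+ samples, lowest in 14, then 18, 20 and 16, and so did Plxnb3, Plxnb1, L1cam, Chl1 and Thy1. Sema3b, Dpysl2, Rras2 and Erbb2 took this order too, so it does not single these genes out. The share of all tested genes with this order was not counted. Plxnb1 ran only from 5.7 to 5.8 in the CD90+ samples, and it, Plxnc1 and Plxnb3 lay below the negative control rows. Plxna1, Plxna2, Plxna3, Plxna4, Plxnb2, Plxnd1 and Nrp2 took other orders. Plxna2 was instead highest in sample 14, where the glia mean was lowest, and lowest in sample 16, where it was highest. The part of glial RNA in these differences was not tested.

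Of 8 measured neuron markers 2 were tested, Ret and Uchl1, and both were called higher, Ret being tested only through its CD90+ values, while Elavl4, Elavl3, Chat and Nos1 stayed between 4.11 and 4.79 on all arrays. The means of Ret and Uchl1 lay below the negative control rows. Of 10 blood endothelium markers 7 were tested and 1 was called, Tek, which was higher, and the means of the 10 ran from 5.61 to 6.18 and from 5.85 to 6.44. Pecam1 was at 6.24 ± 0.34 and 6.59 ± 0.51 and Cdh5 at 5.54 ± 0.3 and 5.7 ± 0.61, below the negative control rows. Of 4 measured lymphatic endothelium markers Prox1 and Lyve1 were called lower, from 6.21 ± 0.098 to 5.72 ± 0.17 and from 6.99 ± 0.21 to 5.9 ± 0.19. Both means of Prox1 and the CD90+ mean of Lyve1 lay below the negative control rows. The other 2, Flt4 and Reln, were too dim to test. Of 5 pericyte markers 3 fell, led by Abcc9 (difference -3.37), and 2 rose. Of 6 macrophage and dendritic cell markers 3 were tested and all 3 were called higher, and of 3 tested lymphocyte markers 2 were called higher, with list means between 5.73 and 6.32 and between 4.96 and 5.46. Of these called markers only Cd68 had means above the negative control rows, and Adgre1, Csf1r and Itgax were too dim to test. The interstitial cell of Cajal marker Ano1 fell by 3.23 and Kit was not called. For comparison with these marker counts, 14.0% of all tested genes were called higher and 15.7% lower. The part of these cells in the plexin and Nrp2 values was not tested.

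**Figure D4:**
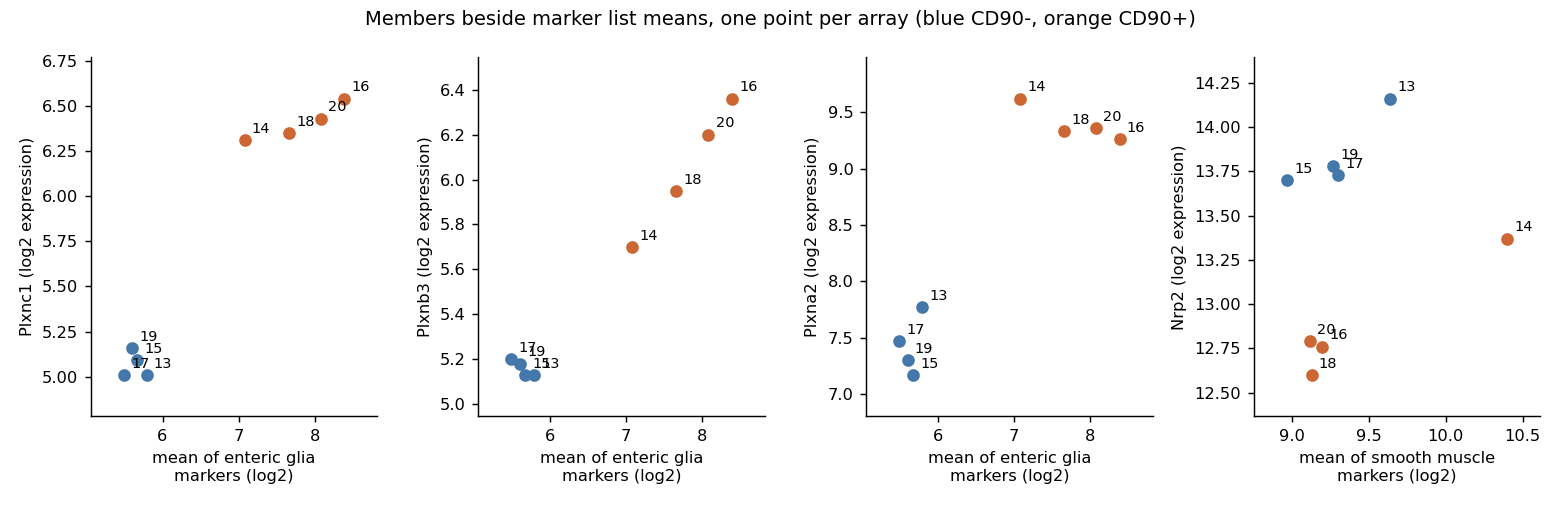
Plxnc1, Plxnb3 and Plxna2 against the mean of 8 enteric glia markers, and Nrp2 against the mean of 7 smooth muscle markers (all log2 expression), with 1 numbered point per array. In the CD90+ samples Plxnc1 and Plxnb3 rise from sample 14 to 18, 20 and 16 with the glia mean while Plxna2 is highest in sample 14, and Nrp2 is highest in samples 13 and 14 of its populations.

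The calls of Plxna1, Plxna2, Plxnc1 and Nrp2 held under all alternatives in which these genes were tested. Over these alternatives the difference ran from -1.08 to -1 for Plxna1, from 1.88 to 2.08 for Plxna2, from 1.3 to 1.37 for Plxnc1 and from -1.13 to -0.86 for Nrp2. The highest limma adjusted p was 0.000464 for Plxna1, 0.000126 for Plxna2, 7.99e-05 for Plxnc1 and 0.0404 for Nrp2.

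**Figure D5:**
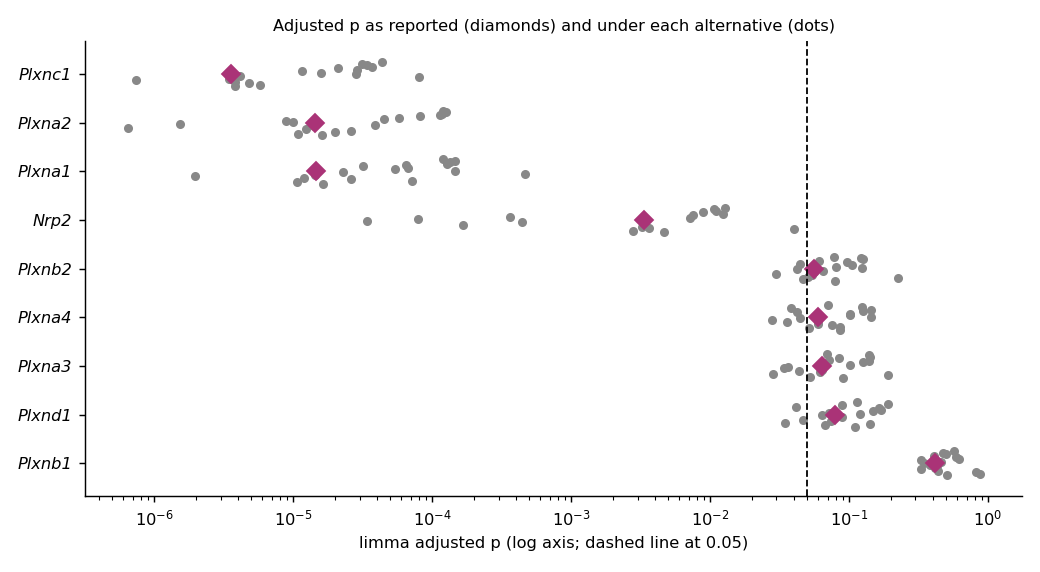
Limma adjusted p (log axis) of the 9 members as reported (diamonds) and under each alternative of processing or samples (dots), with the threshold of 0.05 dashed. Plxnc1, Plxna2, Plxna1 and Nrp2 stay left of the line, Plxnb1 stays right of it, and Plxnb2, Plxna4, Plxna3 and Plxnd1 fall on both sides.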

How the data were processed

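Per the labels' protocols, RNA was prepared with the Agencourt RNAdvance Cell kit and 2 ng was amplified for the array. The authors deposited log2 values, made with Affymetrix Expression Console 1.1 and RMA per the submitters' processing notes; the settings and the array's genome build are not given in the sources used here. RMA quantile-normalizes arrays, so differences are relative to the bulk of the transcripts, and amplification from little RNA can add spread to dim ones.

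Of 65956 transcript clusters 31388 named 1 gene, 1362 several and 33206 none; these last are unnamed here. Symbols were updated through RefSeq gene identifiers (23602 clusters matched). Of a gene's clusters the one with the highest mean was kept, and genes reaching 5.36, the median of all cluster values, on at least 4 of 8 arrays were tested with limma 3.58.1 (lmFit, eBayes, two-sided, no block) in R 4.3.3. On simulated data with the gene means and spreads of this comparison (17283 genes), 67, 65 and 68 genes were changed by 0.5, 1 and 2 (log2). That test recovered 44.8%, 87.7% and 100% of them, and 11 of its 166 calls were unchanged genes. Far fewer genes were changed there than the 29.7% called in the real comparison, and the simulated noise was independent between arrays. The recovered shares therefore need not hold for the real data. A planned comparison of Nrp2 with Nrp1 was not made, since Nrp1 had no row of its own.

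The members and lists were chosen with earlier results of these data known. Named genes were the members, Plxnb3, the sort gate genes, cell type markers and, per list, up to 3 called genes with the smallest p in each direction; Sema7a, Sema4d, Kdr, Flt1, Flt4 and Sema3d were named after their values were seen, as were the genes that followed the order of the glia mean. Deviations from the population means correlated at r = 0.44, 0.358, 0.451 and 0.285 across genes between samples of consecutive numbers, but sample 19 correlated more with sample 18 (0.317) than with 20. Alternatives changed the filter, normalization, variance model, array weights, cluster choice, block, batch term and samples. Plots used matplotlib 3.10.9, and exact tests scipy 1.17.1.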

Additional observations from a re-analysis of the deposited data

Results flagged for a closer look

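A signal lay in a row that no comparison above uses. The transcript cluster that lists both Nrp1 and Mir1903 was at 10.58, 10.12, 11.11 and 10.8 in CD90- samples 13, 15, 17 and 19 and at 13.31, 13.66, 14.02 and 13.81 in CD90+ samples 14, 16, 18 and 20. Its mean was 10.65 ± 0.41 in CD90- and 13.7 ± 0.3 in CD90+ samples (n = 4 each), a difference of 3.05 that was not tested. The annotation does not say which of the listed genes the row reads, so it is no value for Nrp1. In the 20 groups of 4 samples formed by the 9 members and Plxnb3, 0 had a sample far from the others by Dixon's criterion, which flags about 1 in 20 groups by chance.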

How the results depend on the processing

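Over the 18 alternatives 0 member differences changed direction, and Plxna1, Plxna2, Plxnc1 and Nrp2 kept their calls wherever they were tested. With the filter at the negative control rows Plxnc1, Plxnb1 and Plxnb3 were too dim to test, so 1 member was called higher, and Plxnb2 was called at -0.26. Members called lower numbered 4 with arrays centred on their median (Plxna3 at -0.26 and Plxnd1 at -0.3 added), 5 with array weights (Plxna3 at -0.19, Plxnb2 at -0.23 and Plxnd1 at -0.28 added, and Plxna4 called higher at 0.43) and 4 with samples 13 and 14 as a batch term (Plxna3 at -0.22 and Plxnb2 at -0.26 added, and Plxna4 called higher at 0.52). With consecutive title numbers as a replicate block, a pairing that no label states, Plxna3 (-0.22) and Plxna4 (0.52) were called too, and no other member's call changed. The cause of these changes was not tested.

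Leaving out 1 sample at a time moved Plxna4 between 0.37 and 0.63, Plxnb2 between -0.31 and -0.19 and Plxnd1 between -0.33 and -0.21. The shift of Plxna2 against Plxna1 then ran from 2.92 to 3.08 with an exact permutation p of 0.0571. That is the smallest that 3 samples against 4 can give, and it too was fixed by the separation of both genes. Among the 28 other genes looked at, 8 of 499 values lost their call, 6 of them of Sema4b, and 0 changed direction; 17 of 216 list counts moved by over 1.5 times. Values below the negative control rows limit what can be read for Plxnb1, Plxnb3 and Plxnc1, and for Plxna4 in the CD90- samples.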

Other observations

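After each population's mean was removed, the genes most alike to each called member over the 8 arrays were Trpv2, Cacng7 and Etfa for Plxna2 (Pearson r = 0.993, 0.991 and 0.988), and Mad2l2, Zfp438 and Gm12405 for Plxna1 (0.973, 0.964 and 0.96). For Plxnc1 they were Dcun1d3, Pacsin2 and Spink4 (0.982, 0.982 and 0.971), and for Nrp2 Spry1, A730020M07Rik and Cnn1 (0.99, 0.985 and 0.982). Spry1, a feedback inhibitor of receptor tyrosine kinase signalling, also fell (difference -0.8, limma adjusted p = 0.00849), while Cnn1, the smooth muscle calponin gene, rose by 1.77 (limma adjusted p = 0.00835). These are the highest of 17283 genes over few arrays and are a description. Among the members themselves the closest pairs were Plxna2 with Nrp2 (r = 0.81) and Plxna3 with Plxnc1 (r = 0.8), and the most opposed pair was Plxna2 with Plxna3 (r = -0.78). Samples 13 and 14, which stood apart, were the highest of their populations for both Plxna2 and Nrp2. No r was computed without these samples.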
